A study of Mus musculus with 2 samples.

Results

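The data described here are the RNA levels of 4 genes of the extracellular matrix, *Col1a2*, *Col2a1*, *Dcn* and *Lum*, in mouse embryo fibroblasts (MEFs). They were chosen by name as the collagen and proteoglycan genes of the fibroblasts. No measured value entered the rule, but earlier results of these data were known when they were chosen. They are 4 of 1718 annotated genes that lie wholly inside the stretches of the genome for which signal was deposited. The JXO cells came from a JF1 mother and an OG2 father, and the OXJ cells from an OG2 mother and a JF1 father. JF1 is an inbred strain of the molossinus subspecies. OG2 is a stock derived from CBA/CaJ and C57BL/6J mice that carries the GOF18ΔPE-EGFP transgene, in which promoter sequence of *Pou5f1* drives EGFP, so the embryos of both crosses received it from one parent. Both libraries were made from female 13.5 dpc embryos, from which head and internal organs had been removed, after passage 2–3 in culture. 1 line was sequenced per cross, so each value rests on 1 library per cross, and differences between crosses, embryos and cultures cannot be told apart.

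Fibrillar collagens are secreted as triple helices, in which each chain is a long run of Gly-X-Y repeats, and assemble into the fibrils that carry the tension of connective tissue. *Col1a2* encodes an alpha chain of type I collagen, the main collagen of skin, tendon and bone and a chief product of fibroblasts, whereas *Col2a1* encodes the chain of type II collagen, the collagen of cartilage. *Dcn* (decorin) and *Lum* (lumican) encode small leucine-rich proteoglycans, which bind to collagen fibrils and regulate their thickness and spacing.

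Total RNA was depleted of ribosomal RNA, its strand was marked with dUTP and the fragments were sequenced from both ends. Levels are given as scaled depth, the mean number of reads that cover a base after scaling each library to 50000000 aligned reads. A single read counts for 0.652 in JXO and for 0.579 in OXJ. The deposited tracks held 5837225 reads of JXO and 5785447 reads of OXJ, which is 7.61% and 6.70% of the aligned reads. Bases outside their 618 stretches were not analysed here, so ranks and medians over genes refer to genes inside the stretches. Intervals are 95% intervals on pairs of reads (200 bases each, or reads over the piece for exons shorter than 1 read), exact Poisson for levels and exact Clopper-Pearson for shares and ratios. They cover counting error only. With 1 library per cross no p-value between crosses was computed. On the strand used here, 569 (JXO) and 568 (OXJ) of 576 protein-coding genes with a level of at least 1 had more RNA on their annotated strand than opposite to it.

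The label of the cells could be checked against few markers. Of 15 fibroblast markers, 3 lay inside the stretches, and these are the members *Col1a2*, *Dcn* and *Lum* themselves. All of them carried signal in both libraries. Of 18 cartilage markers, 2 lay inside, *Col2a1* and *Sox9*, the transcription factor that activates *Col2a1* in chondrocytes. *Sox9* had a level of 2.96 (interval 2.39 to 3.63) in JXO and 3.53 (2.94 to 4.20) in OXJ, far below *Col2a1* itself. Of 4 neural markers, 2 lay inside, *Nes*, an intermediate filament gene of progenitor cells, with 340 in JXO and 155 in OXJ (0.67 above the median gene described below in log2 ratio), and *Sox2*, a transcription factor of neural progenitors, with 1.27 and 1.22. The part of such cells in the results was not tested. No marker of bone, skeletal muscle, blood, endothelium or epithelium lay inside. Whether a few chondrocytes or many cells at a lower level made the *Col2a1* RNA cannot be told apart in RNA of a whole culture, nor can fewer cells of a type and less RNA per cell for any gene below.

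*Col1a2* lies at chr6:4454814-4491543 on the (+) strand of mm9, and its transcript with the longest coding sequence has 52 exons and 5347 bases. *Col2a1* lies at chr15:97806033-97835155 on the (−) strand, with 54 exons and 5104 bases. *Dcn* (chr10:96942245-96980777, 8 exons, 1758 bases) and *Lum* (chr10:97028135-97035337, 3 exons, 2075 bases) lie side by side on the (+) strand of chromosome 10, inside the same 102 kb stretch. Of the 4 members, 1 was in the table of RefSeq promoters used here, *Col1a2*. Its promoter, from 250 bases before to 50 after the RefSeq start (RefSeq, GRCm38.p6, chr6:4505368-4505667, + strand), is shown as the sequence just before the point where the RNA began in the tracks. The same letters stand at chr6:4455368-4455667 in mm9. The capitals mark CCAAT, or its reverse complement ATTGG.

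Col1a2 promoter: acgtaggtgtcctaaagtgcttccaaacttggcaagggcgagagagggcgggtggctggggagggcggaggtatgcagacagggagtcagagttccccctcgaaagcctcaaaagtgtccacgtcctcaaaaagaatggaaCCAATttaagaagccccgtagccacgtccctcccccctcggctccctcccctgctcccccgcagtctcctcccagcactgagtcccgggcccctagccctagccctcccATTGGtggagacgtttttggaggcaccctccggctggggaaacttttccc

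CCAAT was found once as such, at base 142 of this window, and once as ATTGG, at base 251, and 37.4% of the 32851 promoters in the table held it on either strand. GGGCGG was found 2 times on the strand shown and CCGCCC not at all (35.7% of promoters held either). TATAAA and TGANTCA were searched on both strands and had no match (13.6% and 7.81% of promoters held them). None of the matches overlapped. In the tracks, depth over exon 1 first reached 10% of the transcript's median depth 222 bases (JXO) and 221 bases (OXJ) after the annotated start of the longest coding transcript, which is 97 and 96 bases after the RefSeq start and thus past the end of the window shown. Before that point exon 1 had a mean depth of 3.75 in JXO and 3.14 in OXJ, against 732 and 580 over the whole exon. Both libraries thus placed the 5′ edge of the RNA within 1 base of each other, and the ATTGG at base 251 begins at the RefSeq start itself.

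The short exons at the 5′ end of *Col1a2* are shown next since they were the exons of the gene that were lower in JXO than in OXJ, with exon letters in capitals and 20 bases of intron on either side (mm9, 5′ to 3′). Exon 2 is at chr6:4458335-4458345, exon 3 at chr6:4458940-4458954 and exon 4 at chr6:4459604-4459639.
Col1a2 exon 2: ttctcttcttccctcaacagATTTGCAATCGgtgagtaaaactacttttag
Col1a2 exon 3: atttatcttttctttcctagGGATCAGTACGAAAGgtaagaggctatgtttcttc
Col1a2 exon 4: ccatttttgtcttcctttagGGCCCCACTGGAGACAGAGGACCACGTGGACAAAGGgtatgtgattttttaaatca

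These exons have 11, 15 and 36 bases, far less than the 100 bases of a read, and each is bounded by AG before and GT after it. The helix of both collagens is encoded mostly by exons whose length is a multiple of 9 bases, that is, of whole Gly-X-Y repeats. This held for 45 of the 50 wholly coding exons of *Col1a2* and for 44 of the 52 of *Col2a1*, and 24 exons of either gene have 54 bases. The 54-base exon with the highest summed level of each gene shows the repeat, with glycine codons in capitals.
Col1a2 exon 11 (chr6:4466392-4466445, +): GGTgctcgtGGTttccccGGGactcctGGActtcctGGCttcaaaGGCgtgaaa
Col2a1 exon 47 (chr15:97809816-97809869, −): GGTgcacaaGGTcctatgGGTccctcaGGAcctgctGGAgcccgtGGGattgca

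Either exon holds 6 glycine codons among 18. Because such repeats resemble each other between collagen genes, the 4 transcripts were compared with the protein-coding transcripts of all other genes. No run of 50 bases was shared by any of them, and of runs of 25 bases only *Col1a2* shared some, 9 of 5323.

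*Col1a2* was the most abundant member in both libraries. Over the exons of all its transcripts the level was 583 (interval 578 to 588) in JXO and 388 (384 to 392) in OXJ, rank 22 in JXO and rank 23 in OXJ among the 576 protein-coding genes. The exons of all transcripts include 5 models with retained introns and have 12145 bases, so the level over the 5347 bases of the longest coding transcript was higher, 1295 in JXO and 866 in OXJ. The log2 ratio of JXO over OXJ was 0.59 (0.57 to 0.61), and 0.58 over the longest coding transcript. With the median depth of the exon bases of all transcripts in place of the mean it was 1.07. Most of these bases lie outside the longest coding transcript, so that median need not describe its exons. Over the longest coding transcript itself the median depth was 1274 in JXO and 843 in OXJ.

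*Col2a1*, the cartilage collagen, came next with 423 (417 to 429) in JXO and 361 (356 to 366) in OXJ, rank 28 in JXO and rank 24 in OXJ. Over the longest coding transcripts *Col1a2* exceeded it 2.596-fold in JXO and 2.04-fold in OXJ. The log2 ratio of JXO over OXJ was 0.23 (0.20 to 0.26) for *Col2a1*, and 0.05 with the tracks scaled to equal totals.

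The proteoglycans were far below the collagens. *Dcn* had a level of 22.9 (20.5 to 25.4) in JXO and 25.9 (23.5 to 28.4) in OXJ, and its log2 ratio was −0.18 (−0.38 to 0.03). By level they stood at rank 284 (*Dcn*) and 308 (*Lum*) of the protein-coding genes in JXO, against 214 and 291 in OXJ. *Lum* had 18.9 (16.8 to 21.2) in JXO and 15.5 (13.7 to 17.4) in OXJ, with a log2 ratio of 0.28 (0.05 to 0.53). Per base of the longest coding transcript, *Col1a2* was 53.8 times as high as *Dcn* in JXO and 31.7 times in OXJ. The intervals of *Dcn* and *Lum* overlapped in JXO and not in OXJ, while those of the other neighbours in the order did not overlap in either library.

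The median gene of the 795 genes with a level of at least 1 was itself higher in JXO, by 0.47 on the log2 scale (quartiles 0.15 and 0.76), so ratios are also given relative to it. *Col1a2* then lay 0.12 above the median gene, *Col2a1* 0.24 below, *Lum* 0.19 below and *Dcn* 0.65 below, that is, higher than 60.8%, 30.1%, 33.7% and 12.8% of the genes tested. None of the 4 members was 2-fold or more from the median gene, a distance that 10.7% of the genes tested reached (34 higher and 51 lower in JXO). Among the 576 protein-coding genes tested, a class that holds all 4 members, 18 (3.1%) were 2-fold or more from the median of that class, 0.50. For *Lum* the interval relative to the median gene, −0.42 to 0.06, included no difference, and for *Dcn* it was −0.85 to −0.44. *Dcn* thus had the lowest ratio of the members, and the ratio of *Col2a1* and of *Lum* changed sign with this centring.

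**Figure D1:**
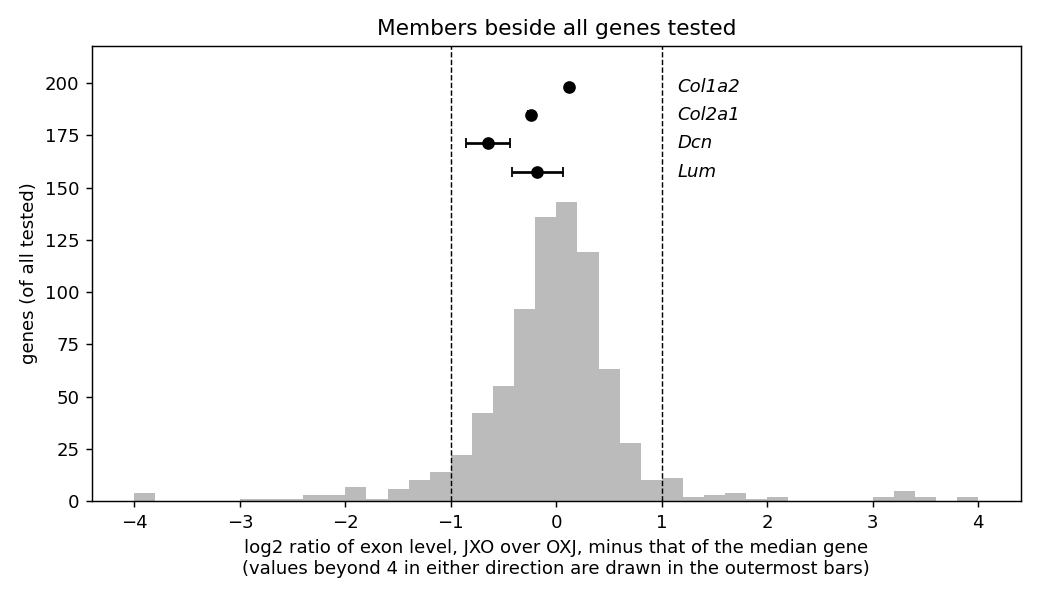
Histogram of the log2 ratio of exon level, JXO over OXJ, minus that of the median gene (x axis) for the 795 genes tested (y axis, number of genes), with the 4 members as points above it. Bars on the points are 95% counting intervals and dashed lines mark 2-fold. All members lie between the lines, *Col1a2* at 0.12 and *Dcn* at −0.65.

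Other genes of collagen and proteoglycan biology were mostly outside the stretches. Of 11 fibrillar collagens 2 were inside, and of 16 small leucine-rich proteoglycans 2, which are the members, while of 33 other collagens and 29 other matrix genes none was. Of 33 collagen-processing genes, 3 were measured and none was 2-fold from the median gene, with a median of 0.18 above it. *Serpinh1*, the collagen chaperone of the endoplasmic reticulum, had 3387 in JXO and 2152 in OXJ, 0.18 above the median gene in log2 ratio. *Loxl2*, a cross-linking enzyme of the lysyl oxidase family, had 516 in JXO and 238 in OXJ, 0.64 above it. *P4ha3*, a subunit of prolyl hydroxylase, had 38.6 in JXO and 44.7 in OXJ, 0.68 below it. The processing genes therefore did not share a direction relative to the median gene.

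The genes of most like level were named by distance over the log2 levels of both libraries among 576 protein-coding genes, a likeness over 2 libraries only. They were *Eif3g* and *Rcn1* for *Col1a2*, *Id1* and *Cd81* for *Col2a1*, *Arhgef25* and *Rcor1* for *Dcn*, and *Rhog* and *Dhcr7* for *Lum*. The distances ranged between 0.02 for *Rhog* and 0.30 for *Cd81*. The genes beside the members were much lower than the collagens. *Casd1*, 59.3 kb beyond *Col1a2*, had 31.4 in JXO and 18.4 in OXJ. *Tmem106c* and *Senp1*, on either side of *Col2a1*, had 22.0 and 25.6 in JXO, against 17.3 and 16.1 in OXJ. On the other side of *Col1a2*, a 7SK copy at 122 kb had no read in either library.

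Levels varied along the collagens. Exons of *Col1a2* had a median level of 1126 in JXO and 792 in OXJ, with a coefficient of variation of 35.2% and 25.3% over its 52 exons. The highest was exon 50 in JXO (2089, against 1216 in OXJ) and exon 51 in OXJ (1762 in JXO and 1459 in OXJ). Exons 8 to 11 formed another high stretch, and exon 11 reached 2055 in JXO and 1260 in OXJ. Exon 3 was the lowest in both. Log2 levels of the exons correlated between the libraries with a Pearson r of 0.81 over 52 exons and 0.87 over the 49 exons of at least 40 bases, where neighbouring exons share reads, so this is a description.

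All 49 *Col1a2* exons of at least 40 bases were higher in JXO, with log2 ratios between 0.15 and 0.89 as deposited, whereas the 3 short exons were lower. Relative to the median gene, 29 of these 49 lay above it and 20 below, and the 3 short exons below. Exon 2 had 404 (interval 360 to 452) in JXO and 527 (481 to 579) in OXJ. Exon 3 had 76.4 (58.5 to 99.2) in JXO and 436 (392 to 482) in OXJ. Exon 4 had 320 (282 to 363) in JXO and 490 (445 to 540) in OXJ. The intervals of the libraries overlapped in none of these exons.

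The gap was widest for the 15 bases of exon 3, with a log2 ratio of −2.51 (−2.92 to −2.10), which is 117 reads per base in JXO and 753 in OXJ. Relative to the mean of exons 2 and 4, exon 3 stood at 21.1% in JXO and 85.6% in OXJ. On the 5′ side, intron 2 was the highest intron of the gene in JXO with a level of 51.7, against 17.4 in OXJ. Its depth in JXO lay over its whole length, between 21.4 and 73.2 in 5 equal parts of the intron, against 6.60 and 29.3 in OXJ. Relative to the mean of its flanking exons, which include the low exon 3, intron 2 stood at 21.5% in JXO and 3.62% in OXJ. Intron 3, on the other side of exon 3, was also higher in JXO, with 22.2 against 7.54 in OXJ. That is 11.2% and 1.63% of its flanking exons, and all its 649 bases lie in exons of other transcripts. Every read over such an exon is longer than the exon, so these levels depend on how reads were aligned across splice junctions, and they need not measure the RNA alone. The tracks hold no junctions, and what set this gap was not tested.

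*Col2a1* had a short exon of the same kind that stood low in both libraries. Its exon 3 (17 bases) was its lowest exon, with 97.1 in JXO and 68.3 in OXJ, which is 30.4% and 27.6% of the mean of its neighbours. Exons of *Col2a1* had a median level of 448 in JXO and 365 in OXJ, and 46 of 54 were higher in JXO as deposited, while relative to the median gene 5 of 54 lay above it. Relative to the median gene, exon 17 had the lowest ratio, with 232 in JXO and 310 in OXJ. The last exon was the highest, with 792 in JXO and 626 in OXJ. The Pearson r of log2 exon levels between the libraries was 0.92 over 54 exons.

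Exon 2 of *Col2a1* encodes a cysteine-rich domain and is known to be kept in the type IIA form of chondroprogenitors and skipped in the type IIB form of mature chondrocytes. It is shown with 20 bases of intron on either side (mm9, chr15:97830834-97831037, − strand), exon letters in capitals.
Col2a1 exon 2: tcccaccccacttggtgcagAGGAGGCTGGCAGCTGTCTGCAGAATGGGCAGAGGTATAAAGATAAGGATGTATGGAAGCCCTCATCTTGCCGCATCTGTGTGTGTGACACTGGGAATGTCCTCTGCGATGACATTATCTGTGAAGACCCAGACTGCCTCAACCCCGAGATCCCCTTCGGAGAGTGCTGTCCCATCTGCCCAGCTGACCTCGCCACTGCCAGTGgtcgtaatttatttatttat

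The annotation has 6 coding transcripts of *Col2a1*, of which 5 contain this exon. Its level was 368 (339 to 400) in JXO and 299 (274 to 326) in OXJ, a log2 ratio 0.17 below the median gene. It was 215% of the mean of exons 1 and 3 in JXO and 191% in OXJ. Exon 3 is very short, and the RNA began 60 bases into exon 1 in both libraries, so exon 2 was also set beside the median of all other coding exons, where it stood at 82.0% in JXO and 81.4% in OXJ. Of the 54 exons, 12 were lower than exon 2 in JXO and 8 in OXJ. Intron 2, which follows it, was the highest intron of the longest coding transcript, with 12.9 in JXO and 13.2 in OXJ. Of its 1111 bases, 382 lie in exons of other transcripts. Its depth was even, between 10.7 and 15.8 over 5 equal parts in JXO and between 11.1 and 14.8 in OXJ. The tracks give depth and not spliced reads, so the share of RNA molecules with exon 2 was not measured.

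**Figure D2:**
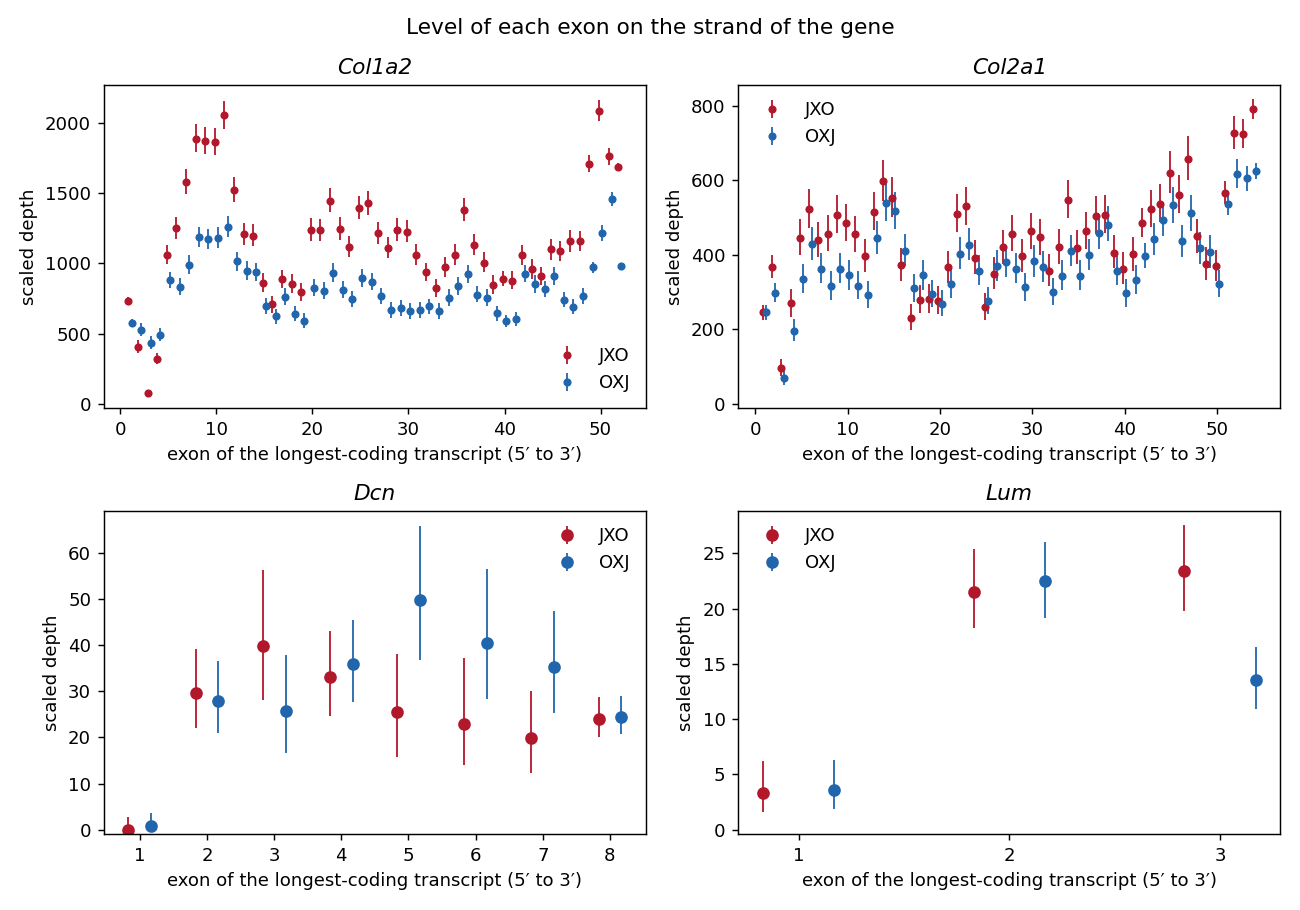
Level of each exon (y axis, scaled depth) by exon number (x axis, 5′ to 3′) for the 4 members, JXO in red and OXJ in blue, with 95% counting intervals. In *Col1a2* exon 3 stands at 76.4 in JXO and 436 in OXJ while the longer exons are higher in JXO. *Dcn* exons 5 to 7 are higher in OXJ.

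In *Dcn*, exon 1 of the longest coding transcript carried no read in JXO and a level of 0.90 (0.016 to 3.56) in OXJ, and a count of 0 in JXO allows a level of up to 2.66. From exon 2 on levels were between 19.9 and 39.9 in JXO and between 24.5 and 49.8 in OXJ, and the depth of either library reached 10% of the median at the first base of exon 2. The lowest ratios of JXO over OXJ among exons 2 to 8 were those of exons 5 to 7, a group named after its values were seen. Together these exons had 22.5 (17.2 to 29.0) in JXO and 41.4 (34.4 to 49.3) in OXJ, 1.34 (0.89 to 1.82) below the median gene in log2 ratio, whereas exons 2 to 4 had 33.1 (27.8 to 39.1) in JXO and 30.6 (25.9 to 36.1) in OXJ, 0.36 (0.01 to 0.71) below it. The last exon, exon 8, lay 0.50 (0.14 to 0.85) below it. The 3′ noncoding part of *Dcn* had 24.0 in JXO and 21.4 in OXJ, and their intervals overlapped. The other annotated transcript of *Dcn* starts from a further exon of 179 bases upstream, which had 11.1 (6.11 to 18.0) in JXO and 11.8 (6.90 to 18.4) in OXJ, so more RNA lay over that first exon than over exon 1 of the longest coding transcript. In *Dcn* the reads behind these values were few, 649 over the transcript in JXO and 829 in OXJ.

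In *Lum* the intervals of the coding sequence overlapped, with 21.7 (18.6 to 25.3) in JXO and 22.2 (19.3 to 25.6) in OXJ. Those of its 3′ noncoding part did not, with 23.6 (19.6 to 28.3) in JXO and 11.9 (9.18 to 15.0) in OXJ, a log2 ratio 0.51 (0.09 to 0.98) above the median gene. Exon 1, which is noncoding, was low in both, 3.28 in JXO and 3.58 in OXJ, against 21.5 and 22.5 in exon 2. The same part of *Col1a2*, 884 bases, had 1649 (1618 to 1680) in JXO and 920 (899 to 942) in OXJ, 0.37 (0.33 to 0.42) above the median gene, against 0.05 for its coding sequence. In *Col2a1* the 3′ noncoding part had 802 (772 to 832) in JXO and 611 (587 to 637) in OXJ, 0.08 below the median gene, against 0.26 below for its coding sequence. In each member the ratio of JXO over OXJ was thus higher over the 3′ noncoding part than over the coding sequence, with overlapping intervals in *Dcn* only. This comparison was not made over other genes, so it cannot be called particular to the members. Over protein-coding genes, the median depth of the last 20% of the transcript over the first 20% was also higher in JXO (1.12) than in OXJ (0.98).

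Along the spliced transcript, depth was higher over the last 20% of the length than over the first 20% in each member. Of 5 equal parts, the last was the highest for *Col2a1* in both libraries and for *Col1a2* and *Lum* in JXO only. The last 20% of the length of *Col1a2* was 1.497 times the first in JXO and 1.22 times in OXJ, and that of *Col2a1* 2.07 times in both. The first 20% counts annotated bases before the point where depth first reached 10% of the median, which lowers its level. These were 222 (JXO) and 221 (OXJ) bases in *Col1a2*, and in both libraries 60 in *Col2a1* and 181 in *Dcn*. In *Lum* they were 111 in JXO and 0 in OXJ. *Dcn* had ratios of 1.60 in JXO and 1.28 in OXJ, with its highest depth in the interior. *Lum* had 5.71 in JXO and 2.24 in OXJ, resting on levels of 4.28 and 4.71 over the first 20%. Over its last 20% it had 24.4 in JXO and 10.6 in OXJ. Over the coding sequence alone the ratio was 0.71 for *Dcn* in JXO and 0.82 for *Lum* in OXJ, so their direction rests on the noncoding ends. The median over protein-coding genes was 1.12 in JXO (513 genes) and 0.98 in OXJ (504 genes). The members lay above 64.3% (*Col1a2*), 76.8% (*Col2a1*), 67.6% (*Dcn*) and 91.6% (*Lum*) of these genes in JXO, against 62.5%, 81.5%, 66.1% and 83.5% in OXJ.

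**Figure D3:**
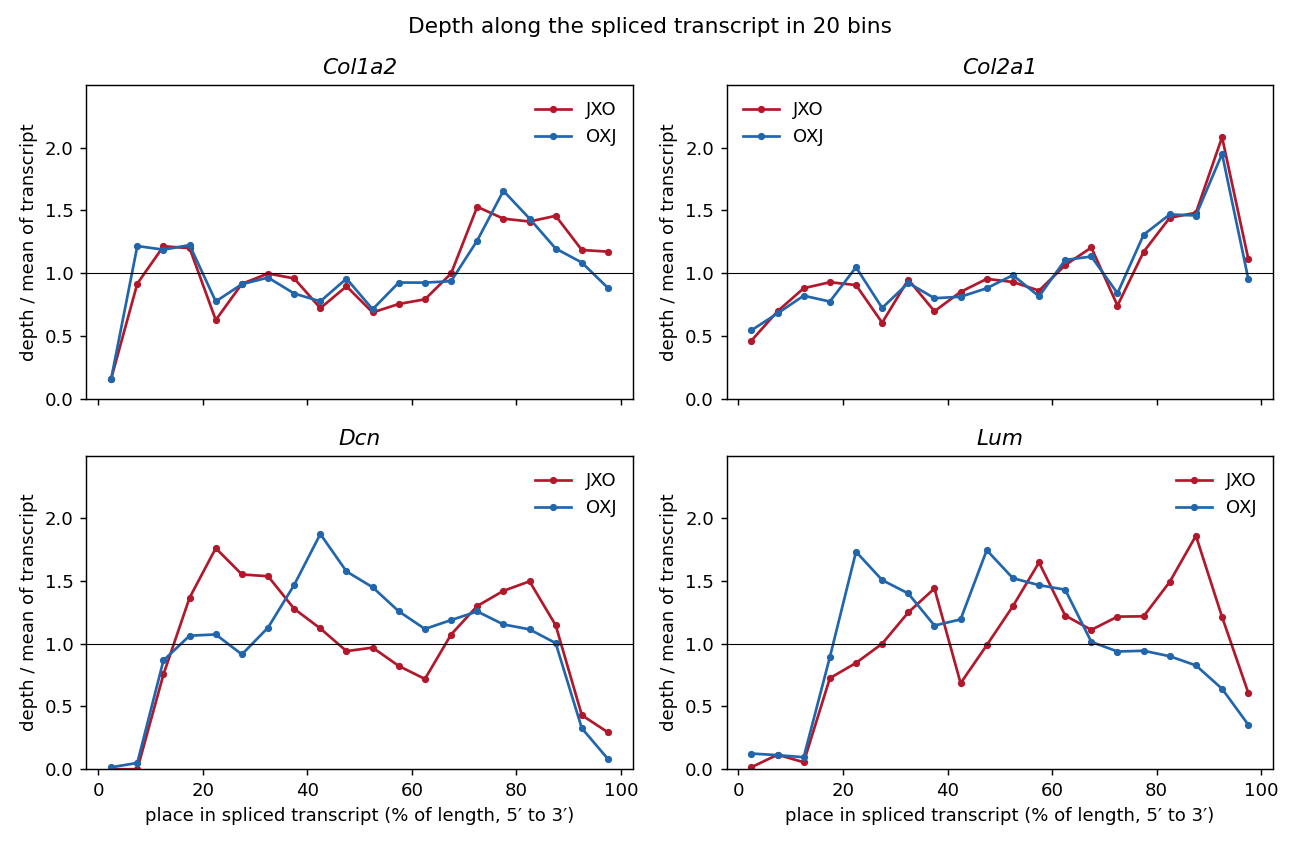
Depth along the spliced longest coding transcript in 20 bins, each divided by the mean of the transcript (y axis), by place in percent of its length (x axis), JXO in red and OXJ in blue. *Col2a1* climbs towards the 3′ end alike in both libraries, while *Lum* stays high in JXO and declines in OXJ, with 24.4 and 10.6 over the last 20%.

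Little RNA lay past the annotated 3′ ends. In *Dcn* depth had fallen before that end, to 0.29 (JXO) and 0.08 (OXJ) of the transcript mean in the last of 20 bins, the lowest of the members. In the first 1 kb past the annotated end the level was 0.17% of that of the last exon for *Col1a2* in JXO and 0.12% in OXJ, and 0.029% and 0.069% for *Col2a1*. *Dcn* had 0.20% in JXO and 0.052% in OXJ, which is under 1 read in both. *Lum* had 0.0028% in JXO and 0.0043% in OXJ. Between *Dcn* and *Lum*, over 47.4 kb on the same strand, there were 6.72 reads in JXO and 7.01 in OXJ, so RNA joining the neighbours was not detectable at this depth.

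The intron share of the exon level was highest in *Col1a2*, lower in *Col2a1* and lowest in *Dcn* and *Lum*, in both libraries. *Col1a2* introns had a level of 16.2 (15.7 to 16.8) in JXO and 8.76 (8.37 to 9.17) in OXJ, 2.78% and 2.26% of the exon level. Of 94 protein-coding genes with an exon level of at least 100 in JXO, 81 had a lower share, and of 65 in OXJ, 49. The median share was 1.24% in JXO and 1.14% in OXJ. This place depended on which exons were counted. With exons and introns of the longest coding transcript of every gene, *Col1a2* introns reached 1.39% in JXO and 1.11% in OXJ, near the medians of 1.14% and 1.14%, with lower shares in 62 of 113 genes in JXO and 37 of 77 in OXJ. In log2 ratio the *Col1a2* introns lay 0.41 (0.34 to 0.50) above the median gene, against 0.12 for the exons. Their level declined along the gene, with 21.8, 16.2 and 10.8 over 3 equal parts of it from 5′ to 3′ in JXO, against 10.6, 9.12 and 6.56 in OXJ. All 51 introns of the longest coding transcript lay below its lowest exon in both libraries.

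*Col2a1* introns had 2.57 (2.34 to 2.82) in JXO and 2.73 (2.51 to 2.97) in OXJ, a share of 0.61% and 0.76%. Lower shares were found in 23 of the 94 genes in JXO and 23 of the 65 in OXJ. In log2 ratio these introns lay 0.55 (0.37 to 0.74) below the median gene. The introns of *Col1a2* and *Col2a1* thus differed in opposite directions from the median gene, as did their exons, by more than counting error. The median gene is a median of exon ratios, and no median of intron ratios was set beside these introns.

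The introns of the proteoglycans were almost empty. *Dcn*, with 36596 intron bases, had 0.036 (0.017 to 0.066) in JXO and 0.071 (0.046 to 0.109) in OXJ, which is 19.97 and 45.16 reads. *Lum*, with 5128 intron bases, had 3.97 reads in JXO and 2.37 in OXJ. The share of the exon level was 0.16% (*Dcn*) and 0.27% (*Lum*) in JXO, against 0.28% and 0.17% in OXJ. The median over protein-coding genes with an exon level between 10 and 100 was 2.73% in JXO and 2.74% in OXJ. Of 252 such genes, 2 had a lower share than *Dcn* and 3 than *Lum* in JXO, and of 236, 1 and 0 in OXJ. Both genes therefore lay at the low end for their level in either library.

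**Figure D4:**
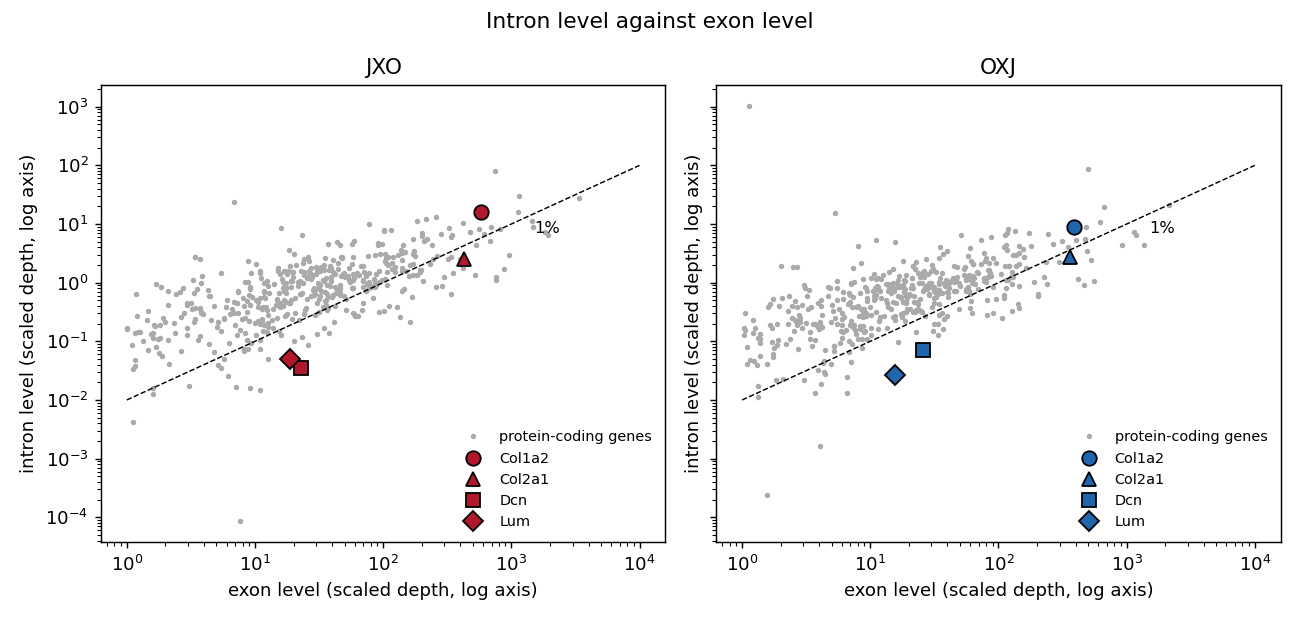
Intron level (y axis) against exon level (x axis) of protein-coding genes, both in scaled depth on log axes, in JXO (left) and OXJ (right), with the members as large symbols and a dashed line at 1%. With exons of all transcripts, *Col1a2* lies above the line at 2.78% and 2.26%, and *Dcn* and *Lum* lie near the lower edge of the genes of their level.

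Antisense reads over the exons made up 2.53% (interval 2.40 to 2.67) of reads in JXO and 3.19% (3.03 to 3.36) in OXJ for *Col1a2*, and 2.97% (2.74 to 3.22) and 4.04% (3.77 to 4.33) for *Col2a1*. Protein-coding genes of at least 100 with no exon on the other strand had a median of 2.52% in JXO and 3.26% in OXJ. *Col1a2* was thus near the middle of such genes, above 44 of 86 in JXO and 28 of 63 in OXJ, and *Col2a1* higher among them, above 60 and 44. Both had the higher share in OXJ, as did the median. *Dcn* had 5.55% (3.44 to 8.47) in JXO and 2.92% (1.56 to 4.93) in OXJ, and *Lum* 5.05% (2.92 to 8.09) in JXO and 4.31% (2.16 to 7.12) in OXJ, with overlapping intervals between the crosses. Such genes with a level between 10 and 100 had a median of 2.97% in JXO and 3.56% in OXJ. *Dcn* lay above 207 and *Lum* above 202 of 226 such genes in JXO, against 65 and 144 of 208 in OXJ. The antisense level over *Col1a2* exons was 59.6 times that over its introns in JXO and 92.4 times in OXJ, and over *Col2a1* 113 and 103 times. The antisense reads of both collagens therefore lay over exons far more than over introns. From exon to exon, antisense and sense level had a Spearman rho of 0.47 in JXO and 0.26 in OXJ for *Col1a2*. For *Col2a1* it was 0.63 and 0.60, and for the 8 exons of *Dcn* −0.43 and 0.48. The origin of the antisense reads was not tested.

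The share differed between exons in a way that both libraries had in common. In *Col1a2* it was highest at exon 36, with 9.85% in JXO and 7.30% in OXJ, and exons 33 to 37 all exceeded 4%, against medians over exons of 1.95% and 2.70%. The Spearman rho of the shares between the libraries was 0.87 over 52 exons of *Col1a2* and 0.75 over 54 exons of *Col2a1*, where neighbouring exons share reads. In *Dcn* exons 5 to 7, where the level was lower in JXO, the antisense share was 13.6% (6.14 to 23.3) in JXO and 2.48% (0.49 to 6.75) in OXJ. These intervals overlapped, and a lower level on the strand of the gene by itself raises the share.

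**Figure D5:**
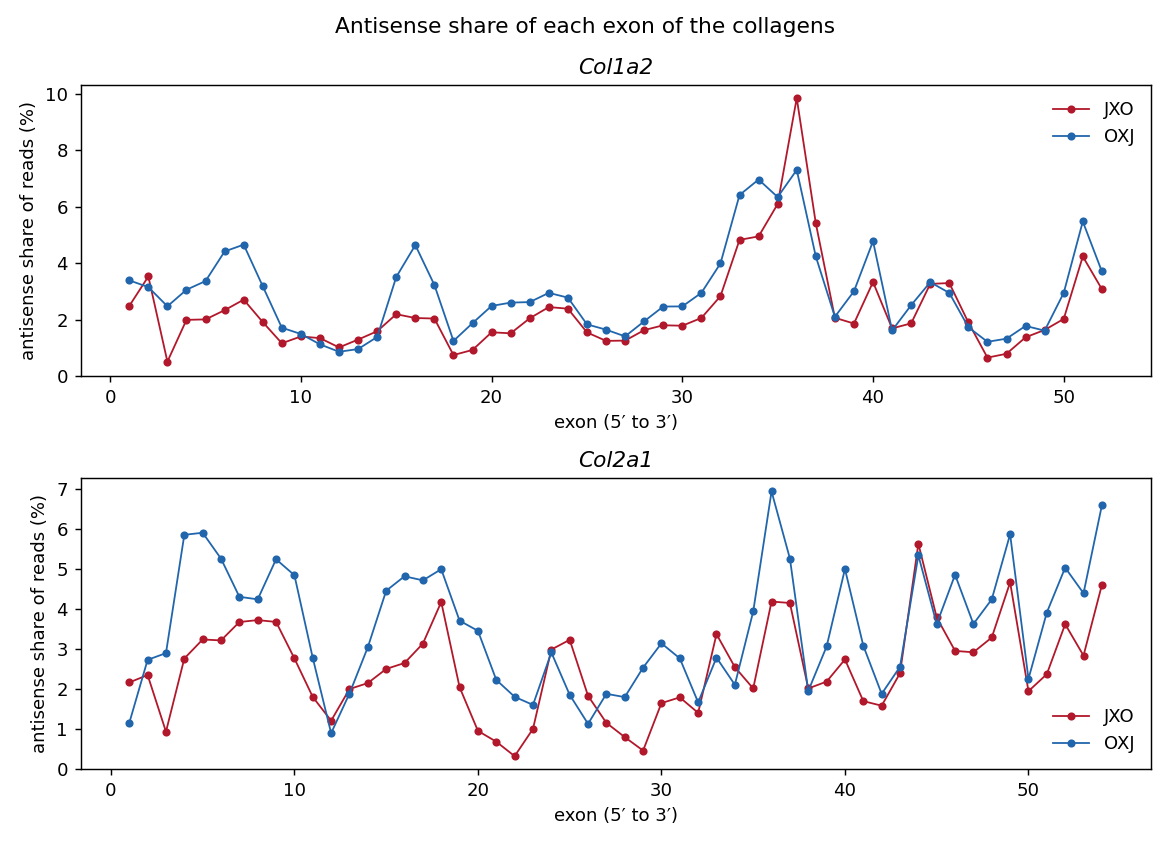
Antisense share of the reads of each exon (y axis, percent) by exon number (x axis, 5′ to 3′) for *Col1a2* (above) and *Col2a1* (below), JXO in red and OXJ in blue. Both libraries peak at exon 36 of *Col1a2*, with 9.85% in JXO and 7.30% in OXJ.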

How the data were processed

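RNA of 1 JXO and 1 OXJ MEF line was analysed. The submitters' processing notes name CASAVA 1.9 and TopHat 1.2.0 and the mm9 build. The authors deposited 4 tracks of log2 values, log2 of 1 plus the read depth at each base scaled to 50000000 aligned reads, for either strand of either library. The values were turned back to scaled depth and were whole reads at every base. Tracks named forward held RNA of the (−) strand. Covered bases no more than 50 kb apart were taken as 1 stretch. The lengths of the 3 chromosomes that carry the members equal those of NCBIM37, and genes are those of GENCODE M1. For the intron level and share of a gene, introns are its bases outside the exons of all its transcripts. Single introns, named by number or counted, are the gaps between exons of the longest coding transcript. Some of them overlap exons of other transcripts. Ratios used a pseudocount of 0.1, and genes tested had a level of at least 1 in a library. Named are the members, their extreme exons and introns, list genes, neighbours and the 2 genes nearest in level. Members and lists were chosen with earlier results of these data known. Alternatives changed scaling, averaging, exons, filters and windows. The ratios and intervals were tested on simulated data. Scripts ran in Python 3.11.15 (scipy 1.17.1, pandas 2.3.3, numpy 2.4.6; plots, matplotlib 3.10.9). The allele-specific data were not used here.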

Additional observations from a re-analysis of the deposited data

How the results depend on the processing

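Of 115 alternatives, 64 kept a value within its counting interval, or a count within 1.5 times, 45 moved it and 6 turned its direction. With 1 library per cross no replicate could be left out. No paired analysis was possible because each cross had 1 library. Scaling to equal totals gave log2 ratios of 0.40 (*Col1a2*) and 0.05 (*Col2a1*). Relative to the median gene, *Col1a2* had 0.12 and *Dcn* −0.65, and *Col2a1* (−0.24) and *Lum* (−0.19) turned negative. The mean of log2 values gave 0.68 (*Col1a2*) and 0.17 (*Col2a1*), and the median depth 1.07 and 0.27, all over the exons of all transcripts. For *Col1a2* most of these bases lie outside the longest coding transcript. Past the fold were 85 genes, 244 with no minimum level, 192 at 1.5-fold and 18 of protein-coding genes alone (an alternative added after seeing the data).

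Intron shares, JXO before OXJ, were 3.09% and 2.42% (*Col1a2*) and 0.71% and 0.87% (*Col2a1*) without 100 bases next to exons. The median depth gave 33.3% and 43.8% for *Col1a2*, where 5347 of the 12145 exon bases lie in the longest coding transcript, 0.29% and 0.47% for *Col2a1*, and 0 for *Dcn* and *Lum*. Within the longest coding transcript alone, an alternative added after seeing the data, they were 1.39% and 1.11% (*Col1a2*) and 0.55% and 0.69% (*Col2a1*). Antisense shares stayed within their intervals.

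The ratio of the 3′ to the 5′ end, JXO before OXJ, was 2.28 and 1.49 (*Col1a2*) and 2.73 and 2.34 (*Col2a1*) over 500 bases. The median depth gave 1.32 and 1.11 (*Col1a2*), 1.84 and 1.84 (*Col2a1*), 12.7 and 4.75 (*Lum*), and 9 for *Dcn* in OXJ. Over the coding sequence alone it was 1.44 and 1.31 (*Col1a2*), 1.59 and 1.75 (*Col2a1*) and 1.40 (*Lum* in JXO), and turned to 0.71 for *Dcn* in JXO and 0.82 for *Lum* in OXJ. The cause was not tested. Exon 2 of *Col2a1* turned from above its neighbours to 82.0% and 81.4% of the median coding exon. The cause was not tested. Over 5 kb past the end *Col1a2* had 0.055% and 0.047% of its last exon. Depth limits *Dcn* and *Lum*, with 555 to 866 reads over their exons.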
